A study of Mus musculus with 12 samples.

Results

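The aryl hydrocarbon receptor (AHR) battery was read in female mouse liver as 10 genes chosen by symbol: Cyp1a1, Cyp1a2, Cyp1b1, Tiparp, Aldh3a1, Xdh, Selenbp1, Slc46a3, Hectd2 and Scin. They are 10 of the 22537 genes in the deposited count table, and all were found. Poly-A RNA was sequenced from the livers of 12 C57BL/6 females, 1 library per mouse. All mice were adult, 6 months old, and were kept for 13 weeks on a high-fat diet. The 4 groups of 3 mice were AHR KO, AHR Flox, ARNT KO and ARNT Flox. Per the labels the KO groups lack hepatic AHR or ARNT, and the Flox groups carry the floxed gene of the same line. Neither the recombinase nor the part of each gene that it removes is given in the sources used here. No AHR ligand is named in the labels, so the levels are those of mice with no stated inducer.

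AHR is a transcription factor that stays in the cytosol with chaperones until a ligand binds, then enters the nucleus and pairs with ARNT. The pair binds xenobiotic response elements, whose core is GCGTG, and raises transcription of the battery. Cyp1a1 is the classical inducible target in liver, Cyp1a2 is expressed in hepatocytes without an added ligand, and Tiparp encodes a feedback repressor of AHR. ARNT also pairs with the hypoxia-inducible factors.

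Start-site windows, 250 bases before to 50 after the start, were matched in RefSeq (GRCm38.p6, the mm10 assembly) for 7 of the 10 members; Aldh3a1, Xdh and Hectd2 were not matched. The windows of the CYP1 genes are shown whole because these genes had the largest log2 differences of the members between the Flox groups. Capitals mark GCGTG, or CACGC where it lies on the other strand.
Cyp1a1, chr9:57697363-57697662, plus strand: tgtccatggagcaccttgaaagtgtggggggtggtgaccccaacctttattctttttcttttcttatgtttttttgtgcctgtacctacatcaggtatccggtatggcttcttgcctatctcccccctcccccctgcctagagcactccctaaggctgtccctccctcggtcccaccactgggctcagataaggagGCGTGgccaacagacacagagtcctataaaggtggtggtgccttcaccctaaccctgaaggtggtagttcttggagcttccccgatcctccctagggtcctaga
Cyp1a2, chr9:57683606-57683905, minus strand: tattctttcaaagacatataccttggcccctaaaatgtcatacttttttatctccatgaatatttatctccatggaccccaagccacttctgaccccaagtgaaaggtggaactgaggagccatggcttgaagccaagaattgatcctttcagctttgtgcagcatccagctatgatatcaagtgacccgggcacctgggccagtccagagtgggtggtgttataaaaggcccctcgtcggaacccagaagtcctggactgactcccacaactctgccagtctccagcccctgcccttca
Cyp1b1, chr17:79715012-79715311, minus strand: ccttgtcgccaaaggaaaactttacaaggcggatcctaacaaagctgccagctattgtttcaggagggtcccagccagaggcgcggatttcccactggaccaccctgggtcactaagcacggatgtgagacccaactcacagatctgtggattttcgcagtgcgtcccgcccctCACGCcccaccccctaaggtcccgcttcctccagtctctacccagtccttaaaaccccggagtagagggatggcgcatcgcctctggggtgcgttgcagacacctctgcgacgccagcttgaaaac

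Cyp1a1 and Cyp1a2 lie head to head, with 13958 bases between their start sites, so they share an intergenic region. The core stands 54 bases before the start of Cyp1a1 and, on the other strand, 76 bases before that of Cyp1b1. The Cyp1a2 and Slc46a3 windows hold no match to these letters. The cores of 3 further members are shown with their flanks, to set them beside the Cyp1a1 core.
Tiparp, chr3:65528264-65528293, plus strand: cctccgtccggagCACGCgcacgggaggcg
Selenbp1, chr3:94932889-94932922, plus strand: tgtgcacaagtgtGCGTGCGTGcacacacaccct
Scin, chr12:40134247-40134276, minus strand: cgcccgggttcggGCGTGgctgttggcttc

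The Selenbp1 stretch holds 2 overlapping cores within a repeat of alternating bases. In all, 5 of the 7 windows hold GCGTG on either strand, as do 32.4% of the 32851 mouse windows in the table. The longer TNGCGTG, searched on both strands and containing the core, is in 0 of the 7 windows and in 5.07% of all windows. TATAAA, also searched on both strands, is in 3 of the 7 windows and in 13.6% of all. It begins 30 bases before the start of Cyp1a1 and 29 bases before that of Cyp1a2. A match is a run of letters and not a measured binding site.

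Library totals ran from 23585909 to 33255004 counts. Levels are given in CPM, read counts set to a common library size with TMM scaling, a factor per library that balances composition. A count of 0 allows a level of up to 3 counts, which was 0.0861 to 0.126 CPM, counting error alone considered. Arnt had 25.2, 23.9 and 19.0 CPM in ARNT KO livers and 47.8, 52.5 and 50.3 CPM in ARNT Flox livers, 2.21-fold lower in ARNT KO (edgeR, adjusted p = 0.00601). Ahr had 84.4, 94.8 and 80.3 CPM in the livers labelled AHR KO and 53.9, 78.8 and 72.4 CPM in AHR Flox livers, a log2 difference of 0.34 ± 0.17 (SE, adjusted p = 0.470). Whole-gene counts of Ahr therefore do not check the AHR KO label, since the deleted part is not known here. ARNT KO replicate 3 stood apart from the other 11 libraries on the first principal component of all tested genes, which held 43.0% of the variance, at 65.3 against −30.9 to 30.3. Results that rest on this library are given with and without it. Its summed cholangiocyte markers (10 genes) were at 346 CPM and its summed Kupffer cell and macrophage markers (11 genes) at 1037 CPM, the top of the ARNT KO ranges, which began at 68.6 and 614 CPM. The 10 hepatocyte markers were detected in every library, but their sum in ARNT KO replicate 3 was 37315 CPM, against 98628 and 100019 CPM in its group mates. Alb, the albumin gene of that list, was at 5740 CPM in this library, against 51926 and 53685 CPM in its mates. The gap between the sums therefore lies largely in Alb, which had 5490.8 to 7088.5 CPM in livers labelled AHR KO. The mean log2 of CPM plus 1, in which each of the 10 markers weighs the same, was also lowest of the 12 libraries in ARNT KO replicate 3. It was 11.39 there, against 12.16 and 12.20 in its group mates. Summed pericentral hepatocyte genes (22) were at 13485 CPM in ARNT KO replicate 3, and the ARNT KO range reached 21800.1 CPM. In all 12 libraries the erythrocyte genes Hba-a1, Hba-a2 and Hbb-b1 were at 0, and why was not tested. The 6 erythrocyte markers found summed to 13.6 to 30.2 CPM per library, all of it from the other genes of that list.

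Per kilobase of exon, the 8 members that passed the count filter ranged from abundant to barely expressed. Cyp1a2 averaged 249 CPM per kilobase over the 12 libraries and ranked 181 of 12636 genes, followed by Selenbp1 at 150.2 CPM per kilobase. Slc46a3 at 25.6 and Xdh at 24.5 CPM per kilobase came next and lay within each other's spread. Tiparp stood at 2.30 CPM per kilobase. At the low end, Cyp1a1 at 0.253, Cyp1b1 at 0.202 and Hectd2 at 0.165 CPM per kilobase had overlapping values among libraries and ranked between 11217 and 11672. The classical inducible gene was thus among the least expressed that could be tested, while its neighbour Cyp1a2 was among the most expressed.

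**Figure D1:**
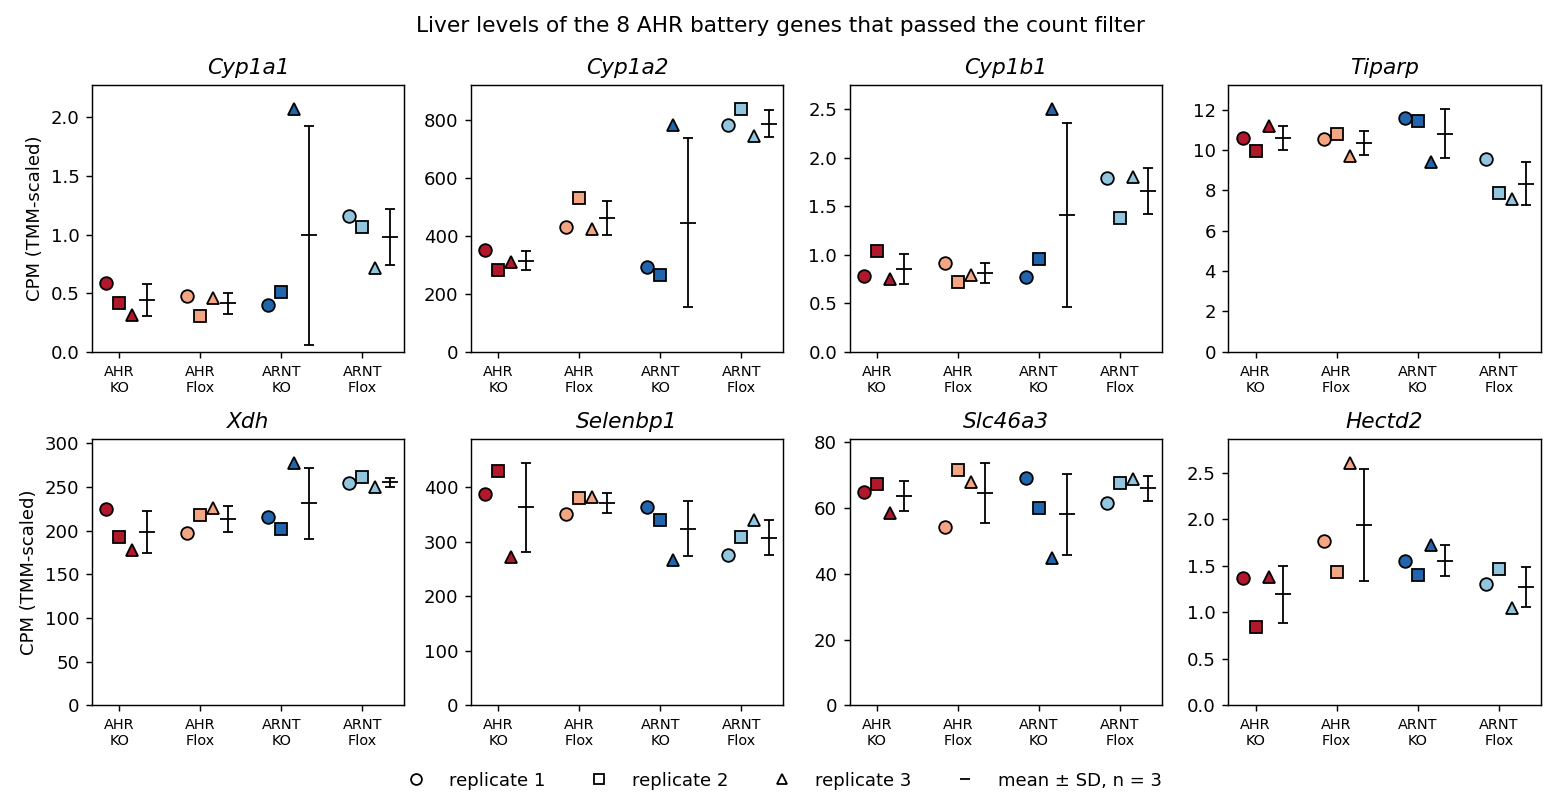
Level of each of the 8 tested members in CPM (vertical axis, from 0) in the 4 groups; symbols are single livers by replicate number and the bar is the mean ± SD of 3. Replicate 3 of ARNT KO (dark blue triangle) lies far above its group mates for Cyp1a1, Cyp1a2 and Cyp1b1.

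Cyp1a2, the hepatic monooxygenase that oxidises caffeine and aromatic amines, was the most abundant member. It had 349.5, 283 and 310.0 CPM in livers labelled AHR KO, against 431, 530.1 and 424 CPM in AHR Flox livers. In the ARNT line it had 291, 265 and 779.6 CPM in ARNT KO livers, against 779.6, 836 and 743 CPM in ARNT Flox livers. All 3 AHR KO livers were below all 3 AHR Flox livers. ARNT KO replicates 1 and 2 were as low as the AHR KO livers, and ARNT KO replicate 3 lay inside the ARNT Flox range. The ARNT Flox livers lay above the AHR Flox livers with no overlap, so the controls of the 2 lines did not share a level.

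Cyp1a1, which oxidises polycyclic aromatic hydrocarbons, had low counts, 9 to 72 per library. It had 0.586, 0.421 and 0.314 CPM in livers labelled AHR KO and 0.477, 0.308 and 0.456 CPM in AHR Flox livers. It had 0.403, 0.508 and 2.07 CPM in ARNT KO livers and 1.16, 1.06 and 0.712 CPM in ARNT Flox livers. The AHR KO and AHR Flox livers overlapped. ARNT KO replicate 3 was the highest of the 12 libraries, and its 2 group mates lay below every ARNT Flox liver. The Cyp1a2 count was 377 times the Cyp1a1 count in ARNT KO replicate 3 (95% exact interval 299 to 482), the lowest ratio, and 1723 times in AHR Flox replicate 2 (908 to 3770), the highest; the intervals cover counting error only. The transcripts of these paralogs share 94 runs of 50 bases, 4.79% of those of Cyp1a2, and whether Cyp1a2 reads were counted to Cyp1a1 was not tested.

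Cyp1b1, which hydroxylates oestradiol and polycyclic hydrocarbons, is known mainly from tissues outside the liver. It had 0.781, 1.04 and 0.753 CPM in livers labelled AHR KO and 0.920, 0.718 and 0.787 CPM in AHR Flox livers. It had 0.776, 0.953 and 2.50 CPM in ARNT KO livers and 1.79, 1.38 and 1.80 CPM in ARNT Flox livers. The arrangement of the libraries was that of Cyp1a1: overlap in the AHR line, ARNT KO replicate 3 highest of 12, and the other 2 ARNT KO livers below all ARNT Flox livers.

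**Figure D2:**
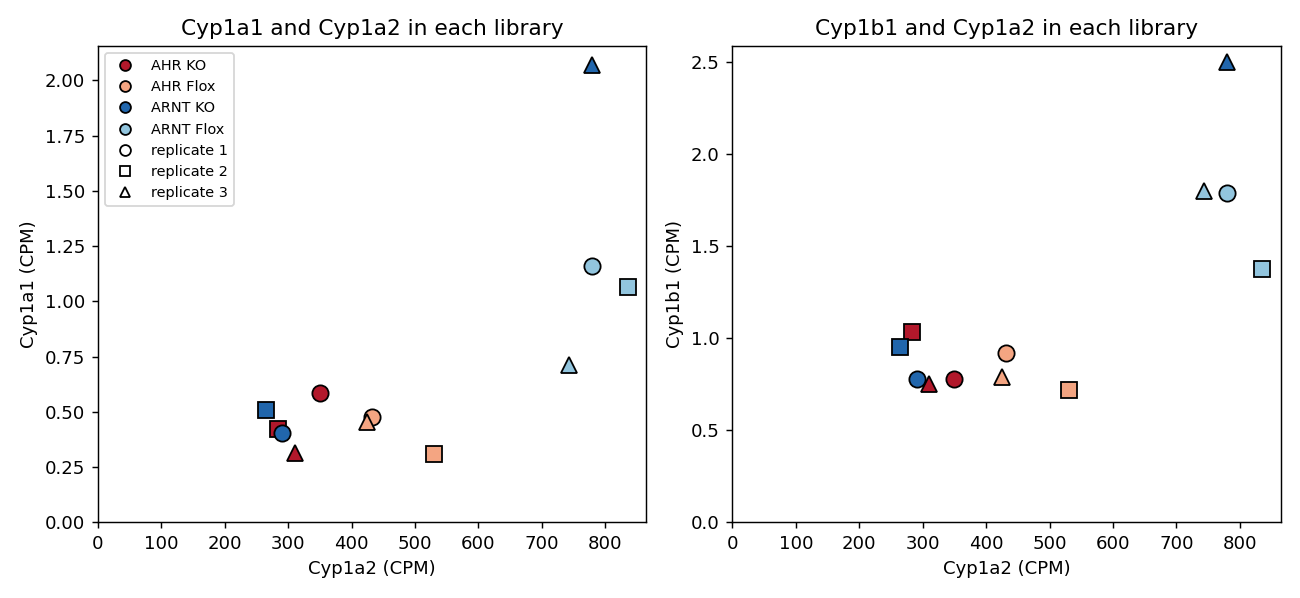
Cyp1a1 (left) and Cyp1b1 (right) against Cyp1a2 in each of the 12 livers, all in CPM on linear axes; colour gives the group and shape the replicate. The 3 ARNT Flox livers and ARNT KO replicate 3 lie at 743 CPM of Cyp1a2 or more, and the other 8 livers at or below 530.1 CPM.

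Tiparp, the mono-ADP-ribosyltransferase that represses AHR, had another pattern. It had 10.6, 9.97 and 11.2 CPM in livers labelled AHR KO and 10.5, 10.8 and 9.69 CPM in AHR Flox livers. It had 11.6, 11.4 and 9.42 CPM in ARNT KO livers and 9.56, 7.86 and 7.58 CPM in ARNT Flox livers. The AHR groups overlapped throughout. In the ARNT line replicates 1 and 2 of the KO were above all Flox livers, while replicate 3 was inside the Flox range. A pseudogene on the opposite strand, 4931440P22Rik, overlaps Tiparp and had 8 to 18 counts per library against 181 to 373 for Tiparp; since the strand setting is not given, their reads cannot be told apart.

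Xdh encodes xanthine dehydrogenase, the last enzyme of purine breakdown to uric acid. It had 225, 193 and 177 CPM in livers labelled AHR KO and 197, 218 and 225 CPM in AHR Flox livers. It had 215, 202 and 278 CPM in ARNT KO livers and 254, 261 and 250.1 CPM in ARNT Flox livers. As for Cyp1a1 and Cyp1b1, ARNT KO replicate 3 was the highest library and its 2 group mates were below all ARNT Flox livers. A processed pseudogene, CT025731.2, is annotated within Xdh on the same strand.

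Selenbp1, a selenium-binding protein that acts as a methanethiol oxidase, was the second member by level. It had 388, 429 and 272 CPM in livers labelled AHR KO and 349.97, 380.1 and 382 CPM in AHR Flox livers. It had 364, 340.1 and 267 CPM in ARNT KO livers and 275, 308 and 339.7 CPM in ARNT Flox livers. Both KO groups overlapped their Flox group, with one low library in each KO group, replicate 3.

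Slc46a3, a lysosomal membrane transporter, had similar levels in all groups. It had 65.0, 67.4 and 58.6 CPM in livers labelled AHR KO and 54.1, 71.6 and 67.9 CPM in AHR Flox livers. It had 69.2, 60.0 and 44.9 CPM in ARNT KO livers and 61.6, 67.5 and 68.7 CPM in ARNT Flox livers. ARNT KO replicate 3 was the lowest of the 12, and the other 11 libraries overlapped between the groups.

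Hectd2, a HECT-domain ubiquitin ligase, had 25 to 63 counts per library. It had 1.37, 0.841 and 1.38 CPM in livers labelled AHR KO and 1.77, 1.44 and 2.61 CPM in AHR Flox livers. It had 1.55, 1.40 and 1.72 CPM in ARNT KO livers and 1.31, 1.47 and 1.05 CPM in ARNT Flox livers. The AHR KO livers lay below the AHR Flox livers, by a narrow gap between 1.38 and 1.44 CPM, and the ARNT groups overlapped. An antisense gene, Hectd2os, overlaps it.

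Aldh3a1, an aldehyde dehydrogenase that AHR ligands induce, and Scin, the actin-severing protein scinderin, did not pass the count filter. Aldh3a1 had 0, 0 and 1 counts in livers labelled AHR KO, 0, 1 and 1 in AHR Flox, 2, 2 and 5 in ARNT KO and 1, 2 and 0 in ARNT Flox. Scin had 0, 1 and 2 counts in livers labelled AHR KO, 1, 0 and 0 in AHR Flox, 0, 2 and 4 in ARNT KO and 2, 4 and 2 in ARNT Flox. These values were at or under the limit of 3 counts, except 5 for Aldh3a1 and 4 for Scin in ARNT KO replicate 3 and 4 for Scin in ARNT Flox replicate 2, so a difference was not detectable at this depth and no fold is given.

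Livers labelled AHR KO averaged less Cyp1a2 than AHR Flox livers, 314 ± 33.3 CPM against 462 ± 59.1 CPM (SD, n = 3 each), but the difference did not pass the test over 12 libraries. Its log2 change was −0.56 ± 0.33 (SE, edgeR, adjusted p = 0.547), and without ARNT KO replicate 3 the change was −0.56 ± 0.11 and the gene was called (adjusted p = 0.0446), 1.48-fold lower. The adjusted p ran from 0.0446 to 0.763 over 19 alternatives, and the gene was called in 1 of them. ARNT KO replicate 3 belongs to neither group; it enters through the estimate of spread that the 4 groups share. A fit of only the 6 libraries of the AHR line, which it does not enter either, gave −0.56 and did not call the gene (adjusted p = 0.164). Hectd2 changed by −0.69 ± 0.27 (adjusted p = 0.342), and Cyp1a1, Cyp1b1, Tiparp, Xdh, Selenbp1 and Slc46a3 had log2 changes between −0.11 and 0.09. The 95% interval was −1.26 to 1.45 for Cyp1a1 and −0.82 to 0.98 for Cyp1b1, so the direction was not resolved at these counts.

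Over the AHR line, edgeR called 0 of the 8 tested members with 12 libraries, where it called 0.0788% of all genes tested. DESeq2 and limma-voom also called 0, and 1 member (Hectd2) had an unadjusted p under 0.05, as had 11.9% of all genes. The median log2 change of the members was −0.02, against 0.01 for all genes. Groups did not overlap for 2 of 8 members, Cyp1a2 and Hectd2, both lower, against 21.2% of all genes in either direction. Without ARNT KO replicate 3, 1 of 8 was called, against 0.966% of all genes. Of the 10 hepatocyte markers, 8 had a log2 change above 0 in this contrast, with a median of 0.15. The others were Apob at −0.05 ± 0.17 and Alb, the albumin gene, at −3.74 ± 0.66 with 12 libraries (adjusted p = 0.0629) and −3.74 ± 0.19 without ARNT KO replicate 3 (adjusted p = 3.61e-06). With 12 libraries 11 of 12 stellate (median −0.26) and 2 of 2 tested erythrocyte markers (−1.13) were below 0. Above 0 were 8 of 12 lymphocyte markers (0.35, with 7 at an unadjusted p under 0.05) and 8 of 12 endothelial markers (0.06). So were 7 of 11 macrophage (0.07) and 4 of 8 cholangiocyte markers (−0.03), and edgeR called 0 on each of these lists. The part of all these markers in the Cyp1a2 difference was not tested, and in bulk liver fewer cells of a type and less RNA per cell cannot be told apart.

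ARNT KO livers gave a Cyp1a2 change that turned on 1 library. With all 12 libraries the means were 445 ± 289.9 CPM in ARNT KO and 786 ± 46.7 CPM in ARNT Flox (SD, n = 3 each), and the log2 change was −0.82 ± 0.33 (adjusted p = 0.769). Without ARNT KO replicate 3 the change was −1.50 ± 0.13 (95% interval −1.78 to −1.21, adjusted p = 0.000495), 2.82-fold lower. The adjusted p ran from 0.000495 to 1 over 19 alternatives, and that fit was the 1 alternative that called the gene. Arnt in replicate 3 was at 19.0 CPM, the lowest of the 12 libraries.

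The other CYP1 genes had values well below 0 when that library was left out, but neither passed the threshold. Cyp1a1 was at 0.02 ± 0.52 with 12 libraries (adjusted p = 1) and at −1.11 ± 0.34 without replicate 3 (adjusted p = 0.137). Cyp1b1 was at −0.22 ± 0.37 with 12 libraries (adjusted p = 0.999) and at −0.93 ± 0.24 without it (adjusted p = 0.0913). Tiparp was at 0.37 ± 0.12 with 12 libraries (adjusted p = 0.637) and at 0.47 ± 0.11 without it (adjusted p = 0.0764), opposite in sign to the CYP1 genes in that fit. Xdh was at −0.14 ± 0.13 and −0.29 ± 0.10 in these fits, and Selenbp1, Slc46a3 and Hectd2 were not called in either.

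Over the ARNT line, edgeR called 0 of 8 members with 12 libraries, against 0.0573% of all genes. DESeq2 and limma-voom also called 0, and 2 members (Cyp1a2 and Tiparp) had an unadjusted p under 0.05, against 5.88% of all genes. The median log2 change was −0.06 for the members and 0.01 for all genes. Groups were separate for 0 of 8 members, against 10.8% of all genes. Without ARNT KO replicate 3, 1 of 8 was called, against 1.37% of all genes; 5 of 8 had an unadjusted p under 0.05, against 16.4%, and the median was −0.16 against 0.00. Of the Kupffer cell and macrophage markers, 11 of 11 were below 0 without that library, with a median of −0.29; edgeR called 0 of them and 4 had an unadjusted p under 0.05. In that fit 12 of 12 endothelial markers (median −0.08) and 7 of 8 cholangiocyte markers (−0.42) were also below 0. So were 10 of 12 stellate (−0.24) and 9 of 12 lymphocyte markers (−0.30), while 8 of 10 hepatocyte markers were above 0 (0.17). The part of these markers in the member values was not tested.

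The effects of the knockouts were compared as the ARNT effect minus the AHR effect. Cyp1a2 gave −0.26 ± 0.46 with 12 libraries (adjusted p = 0.926) and −0.94 ± 0.17 without ARNT KO replicate 3 (adjusted p = 0.0273), so that without this library the fall was larger in the ARNT line. The Cyp1a2 levels of the KO livers lay close together in that case, at 265 and 291 CPM in ARNT KO and 283 to 349.5 CPM in livers labelled AHR KO, while the Flox levels differed. With 12 libraries 0 of 8 members were called by edgeR, DESeq2 and limma-voom, against 0.043% of all genes by edgeR, and 1 (Hectd2, 0.97 ± 0.38, adjusted p = 0.455) had an unadjusted p under 0.05, against 9.51% of all genes. Without the library 1 of 8 was called, against 1.38%.

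**Figure D3:**
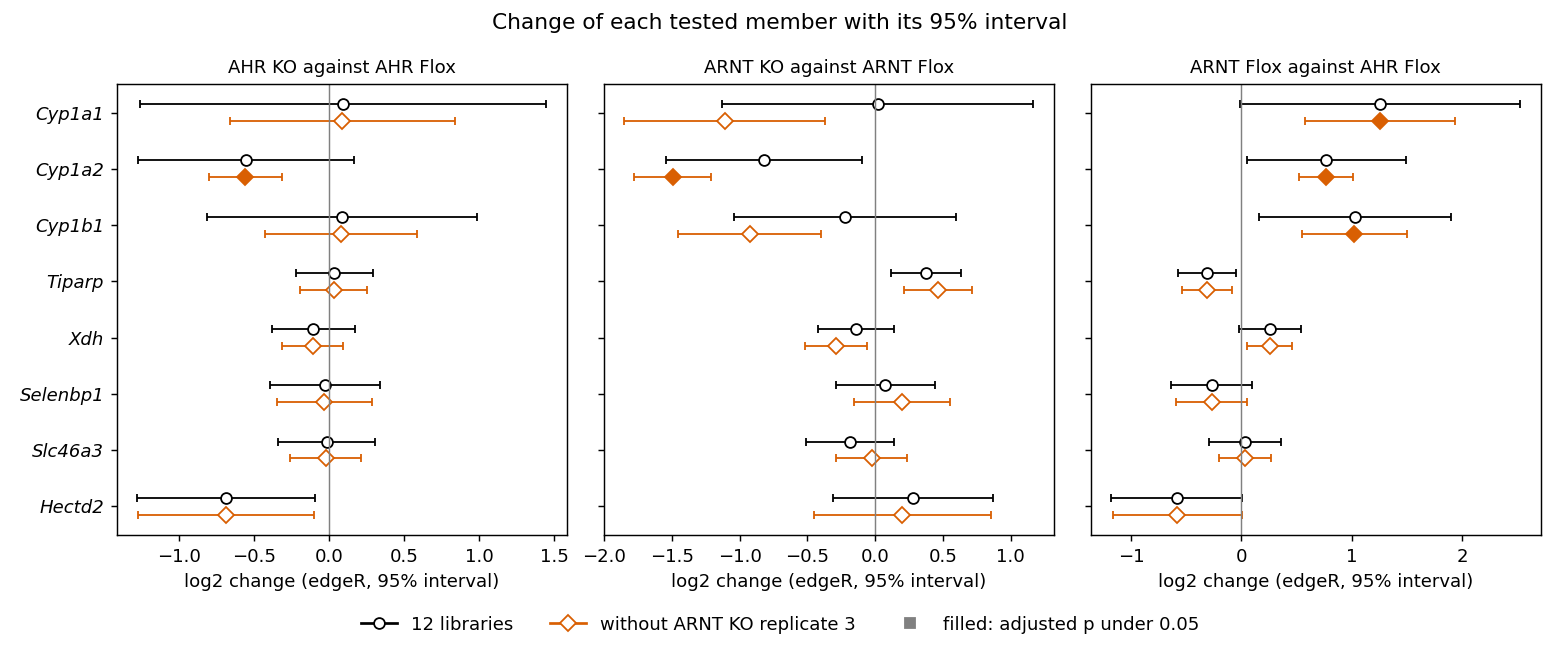
Log2 change (horizontal axis) with its 95% interval from edgeR for the 8 tested members in 3 contrasts, with 12 libraries (black circles) and without ARNT KO replicate 3 (orange diamonds); filled symbols have an adjusted p under 0.05. The estimates of the AHR and Flox contrasts keep their place while their intervals narrow, and those of Cyp1a1, Cyp1a2 and Cyp1b1 in the ARNT contrast move to the left.

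The control lines differed in the CYP1 genes in fits that ARNT KO replicate 3 did not enter. ARNT Flox livers averaged more Cyp1a2 than AHR Flox livers, 786 ± 46.7 CPM against 462 ± 59.1 CPM, more Cyp1a1, 0.979 ± 0.236 CPM against 0.413 ± 0.0922 CPM, and more Cyp1b1, 1.66 ± 0.241 CPM against 0.808 ± 0.103 CPM (SD, n = 3 each). With 12 libraries the log2 differences were 0.77 ± 0.33 for Cyp1a2 (adjusted p = 0.230), 1.25 ± 0.58 for Cyp1a1 (adjusted p = 0.256) and 1.03 ± 0.40 for Cyp1b1 (adjusted p = 0.200). In a fit of only the 6 Flox libraries, which ARNT KO replicate 3 does not enter, all 3 were called: Cyp1a2 1.70-fold higher (95% interval 1.44 to 2.02, adjusted p = 0.00434), Cyp1a1 2.40-fold (1.48 to 3.91, adjusted p = 0.0337) and Cyp1b1 2.04-fold (1.43 to 2.91, adjusted p = 0.0239). The same 6 libraries with the replicate number as a block, a fit added after the data were seen, also called all 3 (adjusted p = 0.00314 for Cyp1a2, 0.0373 for Cyp1a1 and 0.023 for Cyp1b1). Over the 19 alternatives planned the adjusted p ran from 0.00266 to 0.428 for Cyp1a2, from 0.0284 to 0.505 for Cyp1a1 and from 0.0157 to 0.416 for Cyp1b1, each gene being called in 2.

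Other members differed less between the Flox groups. Tiparp was lower in ARNT Flox livers at −0.31 ± 0.12 (adjusted p = 0.200 with 12 libraries and 0.122 in the fit of 6) and Selenbp1 at −0.27 ± 0.17 (0.382 and 0.0971). Xdh was higher at 0.26 ± 0.13 (0.282 and 0.059), and neither Slc46a3 at 0.03 ± 0.15 nor Hectd2 at −0.59 ± 0.27 was called. Groups did not overlap for 6 of 8 members, Cyp1a1, Cyp1a2, Cyp1b1 and Xdh higher and Tiparp and Selenbp1 lower, against 35.8% of all genes in either direction.

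By count, edgeR called 0 of 8 members between the Flox groups with 12 libraries, against 0.329% of all genes, and DESeq2 and limma-voom called 0. An unadjusted p under 0.05 was found for 3 members, against 19.9% of all genes. The members called were 3 of 8 in the fit of 6 Flox libraries, against 11.9% of all genes, 3 of 8 in that fit with the block, against 15.7%, and 3 of 8 without ARNT KO replicate 3, against 10.9%. The median log2 difference with 12 libraries was 0.14 for the members and −0.00 for all genes. With 12 libraries and the replicate number as a block, 23 genes were called between the Flox groups, against 46 without it, and 0 members in both. Summed stellate cell markers (12 genes) were at 653 to 804 CPM in ARNT Flox and 474 to 619 CPM in AHR Flox livers, and Kupffer cell and macrophage markers at 745 to 777 CPM in ARNT Flox and 478 to 697 CPM in AHR Flox livers. Without ARNT KO replicate 3, 7 of the 11 macrophage markers and 0 of the 12 stellate markers were called higher in ARNT Flox, with 6 stellate markers at an unadjusted p under 0.05. In that fit 12 of 12 lymphocyte markers were above 0, with a median of 0.69 and 4 called (Cd3e, Cd3g, Ncr1 and Nkg7), and 12 of 12 endothelial markers were above 0, with a median of 0.32, 0 called and 6 at an unadjusted p under 0.05. In the same fit 28.3% of all genes had an unadjusted p under 0.05. The part of these markers in the CYP1 difference was not tested.

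**Figure D4:**
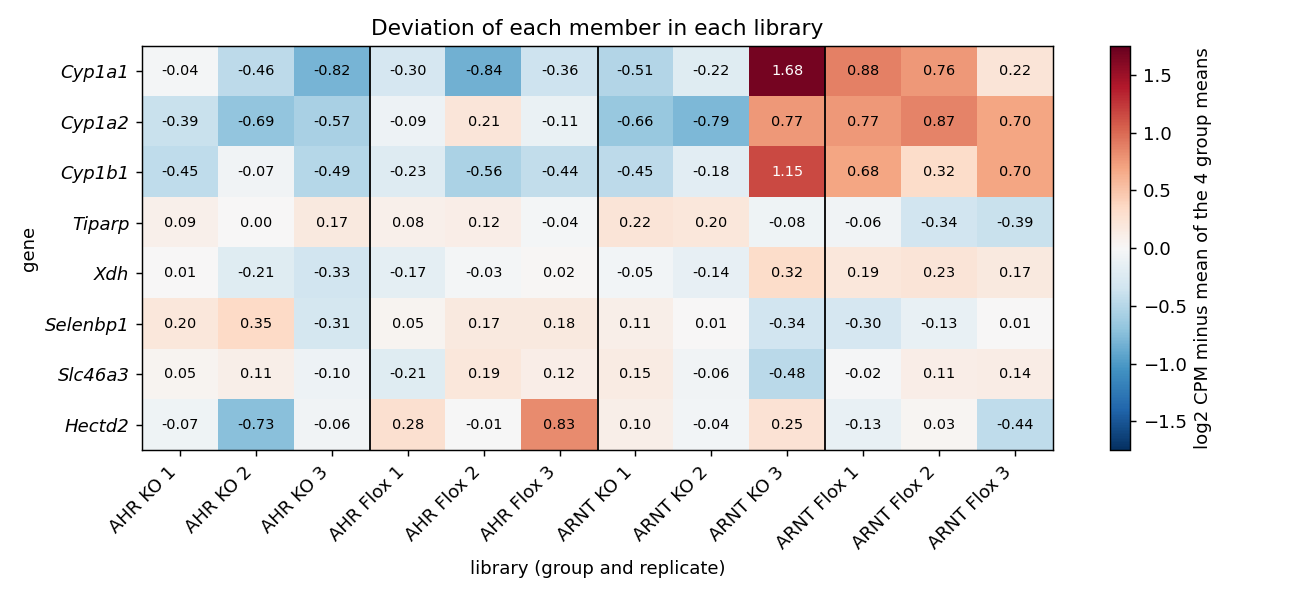
Log2 deviation of each tested member (rows) in each library (columns) from the mean of the 4 group means, red above and blue below. Cyp1a1, Cyp1a2 and Cyp1b1 are red in the 3 ARNT Flox livers and in ARNT KO replicate 3, where Cyp1a1 reaches 1.68. Cyp1a2 is also above 0 in AHR Flox replicate 2, at 0.21. Tiparp is below 0 in the same 4 livers, at −0.06 to −0.39, and in AHR Flox replicate 3, at −0.04.

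Other genes of the pathway gave the setting of these values. Of 16 genes of the receptor complex 14 were tested, and with 12 libraries Arnt, the partner itself, was called lower in ARNT KO and no other member was called in a knockout contrast. Of 30 other reported AHR targets 27 were tested, and edgeR called 0 of them in each of the 4 contrasts with 12 libraries. An unadjusted p under 0.05 was found for 3, 4, 3 and 3 of the 27 in the AHR, ARNT, difference and Flox contrasts. The shares of all genes were 11.9%, 5.88%, 9.51% and 19.9%. With the same libraries limma-voom also called 0 in each, and DESeq2 called 0 in ARNT KO and between the Flox groups. The median log2 change of these targets was −0.05 in AHR KO, 0.12 in ARNT KO and 0.28 between the Flox groups, against 0.01, 0.01 and −0.00 for all genes. The ARNT KO median turned on replicate 3: it was 0.12 with 20 targets above 0 and 7 below, and −0.24 without that library with 10 above 0 and 18 below.

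Nqo1, the quinone reductase that both AHR and NRF2 induce, showed the arrangement of Cyp1a1 and Cyp1b1, with ARNT KO replicate 3 above all other libraries; it is named here after its values were seen. It had 16.5, 14.5 and 9.47 CPM in livers labelled AHR KO and 13.6, 18.0 and 17.4 CPM in AHR Flox livers. It had 14.9, 13.2 and 94.8 CPM in ARNT KO livers and 31.5, 31.2 and 27.1 CPM in ARNT Flox livers. Its ARNT change was 0.45 ± 0.59 with 12 libraries (adjusted p = 0.995) and −1.09 ± 0.20 without ARNT KO replicate 3 (adjusted p = 0.0245). Without that library 2 of 28 tested targets were called in ARNT KO, against 1.37% of all genes. Both were lower, Nqo1 and the thioredoxin reductase gene Txnrd1 (−0.47 ± 0.09, adjusted p = 0.0241). Between the Flox groups 8 were then called higher in ARNT Flox and 1, the tryptophan dioxygenase gene Ido2, lower, against 10.9% of all genes in either direction. Among those higher were Nqo1, Txnrd1, Cdkn1a, Htatip2, Ugt1a7c and the glutathione transferase genes Gsta1 and Gsta2.

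Among the targets with the smallest p in the knockout contrasts, the flavin monooxygenase gene Fmo2 was at 0.66 ± 0.25 in AHR KO (adjusted p = 0.325). The kynurenine aminotransferase gene Ccbl1 was at −0.38 ± 0.12 (adjusted p = 0.602) and the glucuronosyltransferase gene Ugt1a6a at 0.45 ± 0.16 (adjusted p = 0.697) in ARNT KO.

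The genes most like 3 of the members over the 12 libraries were ranked by Pearson's r of log2 CPM among 9857 genes with a mean of at least 5 CPM. For Cyp1a2 they were Hopx at 0.92, Myh10 at 0.91, Samd4b at 0.89, Oasl1 at 0.89 and Kcp at 0.89. For Cyp1a1 they were Rhbdf2 at 0.97, Prkcd at 0.97, Fcgr1 at 0.96, Pir at 0.96 and Ms4a6c at 0.95. For Tiparp they were Pias4 at 0.90, Als2cr4 at 0.87, Hmgn2 at 0.86, 2410091C18Rik at 0.84 and Nme6 at 0.84. Without ARNT KO replicate 3 these values ran from 0.83 to 0.94. They are descriptions over the 4 groups, whose means differ and which share their libraries, and the lists of Cyp1a1 and Cyp1a2 have no gene in common.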

How the data were processed

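The authors deposited raw counts per gene, whole numbers in 12 columns, 1 per liver, for 22537 gene symbols. Libraries of poly-A RNA were made with NEBNext Ultra II from Trizol extracts, per the labels' protocols. Per the submitters' processing notes the build was mm10 and the tools were DESeq2 1.20.0 in R 3.5.1, bcl2fastq 2.20, and STAR 2.6.0c as well as 2.5.4b. Which counting tool, strand setting and annotation were used is not given in the sources used here.

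Counts were analysed in R 4.3.3 with edgeR 4.0.16. The filterByExpr defaults (minimum count 10, total 15) kept 13968 genes with 99.98% of the reads. TMM scaling and 1 quasi-likelihood fit of 4 group means over 12 libraries followed, with two-sided F tests and Benjamini-Hochberg adjustment over all genes tested. Called means an adjusted p under 0.05. The p-values measure the spread between these mice. Exon lengths and gene positions came from GENCODE vM21, and start-site windows from RefSeq. The steps were tested on simulated data. No 2 libraries of the same group were duplicates (chi-square per degree of freedom 16.6 to 237), and libraries of different groups were not compared in this way.

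The members and lists were chosen with earlier results of these data known. One gene that the rule names is not reported here. Named genes are the members, Ahr, Arnt, the called genes of each list or, with none called, its 2 smallest p per knockout contrast, and the 5 genes most like Cyp1a2, Cyp1a1 and Tiparp. Alternatives were other scalings and filters, DESeq2 1.42.0, limma-voom (limma 3.58.1), a fit of the compared groups, leaving out each library, and a block for the replicate number. A blocked fit of the 6 Flox libraries was added, and the leaving-out of ARNT KO replicate 3 chosen for the text after the data were seen. The labels do not say that numbers pair mice. Residuals of same-numbered libraries correlated at 0.327, 0.153 and 0.101 between the Flox groups and at −0.037 to 0.141 within the lines. These ranges overlap, and differently numbered libraries were not set beside them, so the values do not settle whether mice were paired. The main fit has no block, and fits with a block for the replicate number are given as alternatives.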

Additional observations from a re-analysis of the deposited data

How the results depend on the processing

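With 12 libraries no member was called under another scaling, filter, tool or the replicate block over all groups, and low counts limit Cyp1a1, Cyp1b1 and Hectd2. The fit of only the compared groups called 3 members between the Flox groups, and 3 with the replicate block added to it, a choice made after seeing the data. Genes called in AHR KO numbered 11, against 28 without a filter and 359 with DESeq2. In ARNT KO they numbered 8, against 57 with DESeq2, 5 with limma-voom, 3 with the replicate block and 1 with only the compared groups. For the difference of effects they numbered 6, against 148 with DESeq2, and between the Flox groups 46, against 566 with DESeq2, 23 with the replicate block 1615 with only the compared groups and 2139 with the replicate block in that fit. The Cyp1a1 change in ARNT KO of 0.02 became −0.34 with limma-voom and −0.13 with the replicate block; the cause was not tested. Leaving out each library in turn gave 5 to 136 genes in AHR KO, 1 to 193 in ARNT KO, 1 to 194 for the difference and 12 to 1532 between the Flox groups, with 0 to 1, 0 to 1, 0 to 1 and 0 to 3 members called; every member call arose without ARNT KO replicate 3. Signs changed in such fits for Cyp1a1 (AHR −0.17 to 0.28, ARNT −1.11 to 0.39, difference −1.20 to 0.31), Cyp1a2 (difference −0.94 to 0.011), Cyp1b1 (AHR −0.086 to 0.18, ARNT −0.93 to 0.072), Tiparp (AHR −0.018 to 0.064), Xdh (difference −0.18 to 0.076), Selenbp1 (AHR −0.18 to 0.13, ARNT −0.016 to 0.20, difference −0.056 to 0.25) and Slc46a3 (AHR −0.14 to 0.052, Flox −0.086 to 0.11). The other scalings moved the median of all genes by at most 0.0087.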

Other observations

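Genes that hepatocytes express around the central vein, where Cyp1a2 is known to be highest, were read as a list of 22. With 12 libraries edgeR called 0 of the 22 in AHR KO and 0 in ARNT KO. An unadjusted p under 0.05 was found for 1 and 6 of them, against 11.9% and 5.88% of all genes. The medians were 0.08 and −0.14, against 0.01 for all genes in both. DESeq2 called 1 of them, Slc1a2, in ARNT KO. Leaving out ARNT KO replicate 3, the ARNT KO median was 0.00, and edgeR called 1 of the 22 higher and 1 lower, against 1.37% of all genes in either direction. Cyp2c50, a drug-metabolising cytochrome, was higher (2.06 ± 0.21, adjusted p = 0.00112) and Rhbg, an ammonium transporter, lower (−0.95 ± 0.20, adjusted p = 0.0422). Between the Flox groups that fit called both genes in the opposite direction. It called 2 of the 22 higher and 2 lower in ARNT Flox, against 10.9% of all genes in either direction. Cyp2c50 was lower in ARNT Flox (−2.28 ± 0.20, adjusted p = 0.000121) and Rhbg higher (1.18 ± 0.17, adjusted p = 0.00286). The ARNT Flox libraries enter both contrasts. Glul, the glutamine synthetase of the innermost layer, was at 0.31 ± 0.14 in AHR KO (SE, adjusted p = 0.402) and −0.43 ± 0.14 in ARNT KO (adjusted p = 0.637). Of 12 tested periportal genes edgeR called 0 in either knockout contrast with 12 libraries. In each contrast 1 had an unadjusted p under 0.05, against 11.9% and 5.88% of all genes, and the medians were −0.23 and −0.01. Alb was at −3.74 ± 0.66 in AHR KO (adjusted p = 0.0629) and was called there by DESeq2 and, without ARNT KO replicate 3, by edgeR (−3.74 ± 0.19, adjusted p = 3.61e-06). On these lists limma-voom called 0 in the knockout contrasts.

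Genes that make or clear tryptophan-derived and retinoid ligands were 9 tested of 10, and edgeR, DESeq2 and limma-voom called 0 in AHR KO or ARNT KO. With edgeR 2 and 1 of the 9 had an unadjusted p under 0.05, against 11.9% and 5.88% of all genes. The medians were −0.00 and 0.14. Kynu, the kynureninase, was at −0.36 ± 0.12 in AHR KO (adjusted p = 0.251), and Aldh1a1, a retinaldehyde dehydrogenase, at 0.72 ± 0.21 in ARNT KO (adjusted p = 0.569). A further list of 12 genes held hydroxylase genes under other xenobiotic receptors, the reductase gene Por and the receptor genes Nr1i2 and Nr1i3. With 12 libraries 0 of these genes were called in AHR KO or ARNT KO. An unadjusted p under 0.05 was found for 4 and 2 of the 12, against 11.9% and 5.88% of all genes. The medians were 0.31 and 0.01. DESeq2 called 1 of these, the reductase gene Por, in AHR KO, and limma-voom called 0. With ARNT KO replicate 3 left out, edgeR called 1 of the 12 in ARNT KO, against 1.37% of all genes. This was the cytochrome gene Cyp2b13, higher at 1.91 ± 0.25 (adjusted p = 0.00452), against 1.49 ± 0.44 with 12 libraries (adjusted p = 0.569). The same fit called Cyp2b13 lower in ARNT Flox than in AHR Flox livers (−1.78 ± 0.23, adjusted p = 0.00146). It had 707, 711 and 172 CPM in ARNT KO livers and 152 to 242 CPM in ARNT Flox livers. AHR Flox livers had 572 to 724 CPM.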
